A study of Bos taurus with 6 samples.

Results

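This account follows 8 genes of the red blood cell lineage across the fetal bovine forebrain, liver and rumen: the nuclear factors GATA1, KLF1, TAL1 and HEMGN, and the red cell membrane genes SLC4A1, RHAG, GYPB and EPB42. They were taken by symbol from a table of 14179 gene symbols, and all 8 were in it. The libraries were made from poly(A) RNA of male Holstein fetuses of genotype WT at 90 days, whose crown-rump length was 13 to 16 cm, from cows at a slaughterhouse. Each tissue had 2 libraries, called Forebrain 1 and 2, Liver 1 and 2, and Rumen 1 and 2. The labels count 4 cows with 2 male and 2 female fetuses, mark all 6 libraries as male and do not tie a library to a fetus, so a p-value here speaks of the variation among these 6 libraries alone, part or all of which may be technical.

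In the mammalian fetus the liver is the main site of definitive red cell production before the bone marrow takes over. GATA1, a zinc finger factor, TAL1, a basic helix-loop-helix factor, and KLF1, a Krüppel-like factor, together switch on globin, haem and membrane genes in erythroid precursors, and HEMGN is a nuclear protein of haematopoietic cells. The membrane genes encode the anion exchanger band 3 (SLC4A1), the Rh-associated glycoprotein (RHAG), a glycophorin (GYPB) and protein 4.2 (EPB42), which links band 3 to the membrane skeleton. GATA1 and TAL1 also act in megakaryocytes, the platelet-forming cells, and TAL1 in endothelium and in some neurons.

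Total counts ran from 10271024 (Forebrain 1) to 18528958 (Liver 2). Levels are given as CPM relative to an effective library size, the total count corrected by the trimmed mean of M-values (TMM), and 3 counts in 1 library corresponded to 0.193 to 0.244 CPM. The tissue labels held against marker lists: all 13 hepatocyte genes tested were higher in liver than in both other tissues, all 9 forebrain genes tested were lower in liver than in forebrain, and all 10 rumen wall genes tested were lower in liver than in rumen. Of all tested genes, 29.4% were higher and 25.9% lower in liver than in forebrain, and 20.3% and 20.1% than in rumen. The liver libraries stood apart from each other. Among genes with at least 100 counts in the pair, the log2 ratio of library 1 over library 2 had an SD of 1.13 in liver, against 0.378 in forebrain and 0.376 in rumen, so the liver values of the 8 genes are given per library below.

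All 8 genes stood above 100 CPM in both liver libraries and below 4 CPM in every forebrain and rumen library. Over both libraries of a tissue TAL1 kept the most reads, with 69 counts in forebrain and 27 in rumen. Next came GYPB in forebrain (23 counts) and HEMGN in rumen (16 counts). The sum over the 8 was 7068 CPM in Liver 1 and 2818 CPM in Liver 2. It was 5.37 and 3.25 CPM in Forebrain 1 and 2, and 0.995 and 3.20 CPM in Rumen 1 and 2. In bulk tissue, fewer cells of a type and less RNA per cell cannot be told apart.

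**Figure D1:**
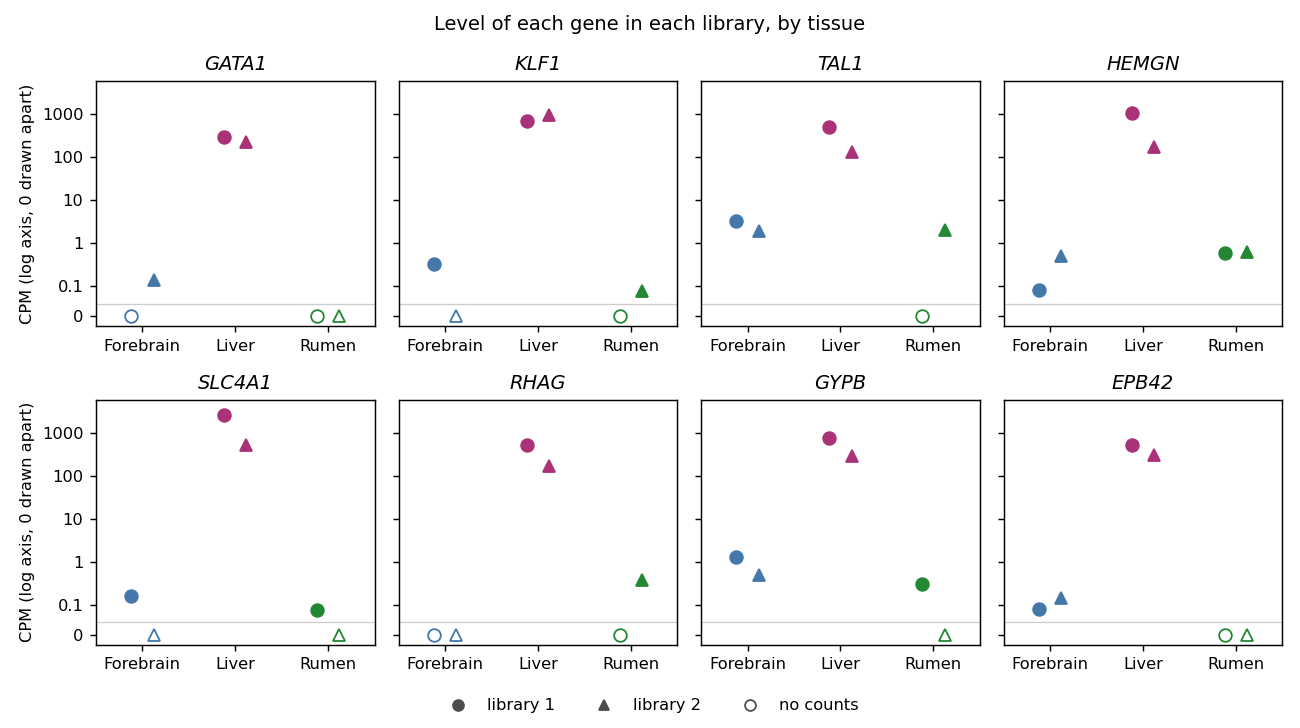
Level of each of the 8 genes in each library, in CPM on a log axis, with libraries without counts drawn as open symbols on a separate line at 0; circles are library 1 and triangles library 2 of a tissue. Every liver value lies above 100 CPM and every forebrain and rumen value below 4 CPM.

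GATA1, the lineage factor for erythroid cells and megakaryocytes, stood at 302 CPM in Liver 1 and 232 CPM in Liver 2 (267 ± 49.4, SD, n = 2). It had no counts in Forebrain 1, 2 counts in Forebrain 2 and none in either rumen library. The liver libraries lay close together and far above the other 4. Its pooled liver level was at least 2283-fold above the floor of 3 counts over both rumen libraries, a bound that falls to 1131 without Rumen 1 and 1153 without Rumen 2, as the floor then rests on 1 library. The adjusted p of GATA1 was 0.000121 against forebrain and 0.000269 against rumen (edgeR). GATA1 and all other members but TAL1 passed the filter on low counts through liver alone. A difference was thus built into which of them were tested, and their adjusted p-values here and below are a description.

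KLF1, which activates adult-type globin and many late erythroid genes, stood at 724 CPM in Liver 1 and 974 CPM in Liver 2 (849 ± 177, SD, n = 2). It had 4 counts in Forebrain 1, 1 count in Rumen 2 and none in Forebrain 2 or Rumen 1. KLF1 was the only one of the 8 with its higher liver value in Liver 2. The ratio of pooled levels of liver over forebrain was 5609, and 2638 without Forebrain 2. The fitted log2 fold change was 12.34 ± 0.79 (SE; edgeR, adjusted p = 9.15e-05), and the adjusted p against rumen was 0.000227.

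TAL1 had the most reads outside liver among the 8 genes. It stood at 516 CPM in Liver 1 and 131 CPM in Liver 2 (323 ± 272, SD, n = 2). Forebrain 1 had 42 counts (3.42 CPM) and Forebrain 2 had 27 counts (1.95 CPM). Rumen 1 had no counts, whereas Rumen 2 had 27 (2.11 CPM), and the 95% counting interval of the Rumen 1 over Rumen 2 ratio reached no higher than 0.144. The rumen libraries thus differed beyond counting error for TAL1, and Rumen 2 fell within the range of forebrain. The liver over forebrain ratio was 117, and 49.5 without Liver 1 or 196 without Liver 2 (log2 fold change 6.92 ± 1.25, SE; edgeR, adjusted p = 0.00429). The liver over rumen ratio was 296. It was 125 without Liver 1, 495 without Liver 2, 147 without Rumen 1 and at least 1346 without Rumen 2 (log2 fold change 8.26 ± 1.36, SE; edgeR, adjusted p = 0.00434).

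HEMGN showed the widest gap between the liver libraries, at 1096 CPM in Liver 1 and 176 CPM in Liver 2 (636 ± 651, SD, n = 2). Forebrain 1 had 1 count and Forebrain 2 had 7, and each rumen library had 8. The SD in liver exceeded the mean, yet the lower liver library was still far above every forebrain and rumen library. The liver over forebrain ratio was 1968, and it was 574 without Liver 1, 3583 without Liver 2 and 1191 without Forebrain 1. Without Forebrain 2 the forebrain level rested on 1 count, so no ratio is given. The log2 fold change with all libraries was 10.99 ± 1.27 (SE, edgeR, adjusted p = 0.000686). Against rumen the ratio was 974, and 284 without Liver 1 or 1773 without Liver 2 (log2 fold change 9.98 ± 1.20, SE; edgeR, adjusted p = 0.00131).

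SLC4A1, the chloride and bicarbonate exchanger that is also the main anchor of the red cell skeleton, reached 2608 CPM in Liver 1 and 529.6 CPM in Liver 2 (1569 ± 1469.8, SD, n = 2). Outside liver it had 2 counts in Forebrain 1 and 1 count in Rumen 1. Those 3 reads were all that the 4 forebrain and rumen libraries held, so no fold is given (edgeR, adjusted p = 0.000331 against forebrain and 0.00059 against rumen).

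RHAG, a partner of the Rh proteins in the membrane, stood at 527 CPM in Liver 1 and 172 CPM in Liver 2 (349 ± 251, SD, n = 2). It was the only one of the 8 without counts in both forebrain libraries, and it had 5 counts in Rumen 2 and none in Rumen 1. Liver was at least 2932-fold above the forebrain floor. This bound was 1501 without Liver 1, 4591 without Liver 2, 1553 without Forebrain 1 and 1379 without Forebrain 2. The liver over rumen ratio was 1741, and 891 without Liver 1, 2726 without Liver 2 and 862 without Rumen 1 (log2 fold change 10.75 ± 1.12, SE; edgeR, adjusted p = 0.00142).

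GYPB, a sialic acid-bearing glycophorin, stood at 777 CPM in Liver 1 and 291 CPM in Liver 2 (534 ± 344, SD, n = 2). Forebrain 1 had 16 counts and Forebrain 2 had 7, against 4 in Rumen 1 and none in Rumen 2. Both forebrain libraries lay above both rumen libraries. The liver over forebrain ratio was 587, and 331 without Liver 1, 883 without Liver 2 and 1021 without Forebrain 1 (log2 fold change 9.21 ± 0.89, SE; edgeR, adjusted p = 0.000343). Against rumen it was 3338, and 1882 without Liver 1, 5026 without Liver 2, at least 2204 without Rumen 1 and 1685 without Rumen 2 (log2 fold change 11.67 ± 1.04, SE; edgeR, adjusted p = 0.000479). Glycophorin genes resemble each other, so reads may be shared among them and the level of GYPB is uncertain.

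EPB42, which binds band 3 on the inner face of the membrane, stood at 519 CPM in Liver 1 and 313 CPM in Liver 2 (416 ± 146, SD, n = 2). It had 1 count in Forebrain 1, 2 in Forebrain 2 and none in rumen. Liver was at least 3521-fold above the rumen floor, or 1743 without Rumen 1 and 1778 without Rumen 2. The adjusted p was 8.88e-05 against forebrain and 0.000227 against rumen (edgeR). With GATA1 and KLF1, EPB42 was among the members whose liver libraries lay closest together.

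In the test across all genes, 8 of 8 members were higher in liver than in forebrain, with adjusted p from 8.88e-05 (EPB42) to 0.00429 (TAL1), where 29.4% of the 11478 tested genes were higher and 25.9% lower (quasi-likelihood test of edgeR, Benjamini-Hochberg adjusted). Against rumen 8 of 8 were higher, with adjusted p from 0.000227 to 0.00434, where 20.3% of all tested genes were higher and 20.1% lower. All members but TAL1, 7 of 8, passed the filter on low counts through liver alone, so for them a difference was built into which genes were tested, and the counts are a description. Between rumen and forebrain, 0 of 8 passed by edgeR, 0 had an unadjusted p below 0.05, and the background was 19.5% of genes higher and 19.9% lower in rumen. DESeq2 called 1 of the 8, GYPB, lower in rumen. For this gene the log2 difference of rumen from forebrain was -2.46 ± 1.23 (SE; edgeR, adjusted p = 0.151), and -2.60 by DESeq2 (adjusted p = 0.0231). It was -2.45 without Liver 1 (edgeR, adjusted p = 0.0298), -2.45 without Liver 2 (edgeR, adjusted p = 0.0298), and -2.54 with the replicate block (edgeR, adjusted p = 0.0301). The order of tissues was thus liver first for each gene, with forebrain and rumen not separated by edgeR's test on all 6 libraries without the block.

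Genes that work with these factors were mostly higher in liver too. Among all tested genes, 29.4% were higher and 25.9% lower in liver than in forebrain, and 20.3% higher and 20.1% lower than in rumen. Of 14 tested transcription partners (of 19 listed, the others not analysed here), 10 were higher and 2 lower in liver than in forebrain, with a median log2 fold change of 4.32 against 0.14 for all tested genes. The lower ones were TCF12 and BCL11A, and with either Forebrain library left out 1, BCL11A, was lower. Against rumen 11 were higher and 1, TCF12, was lower, with a median of 3.47 against 0.06, and 0 were lower without Rumen 2. The counts of higher genes also fell when either library of the tissue compared with liver was left out. NFE2, a factor of globin gene control, stood at 388 CPM in Liver 1 and 572 in Liver 2 with 4 counts in forebrain and none in rumen. GFI1B, a repressor required for erythroid and megakaryocyte maturation, stood at 118 ± 39.9 CPM in liver without counts elsewhere. LMO2, the bridging protein that joins TAL1 to GATA1, was higher in liver but present everywhere, at 260 ± 101 CPM in liver, 46.7 ± 6.72 in forebrain and 28.8 ± 0.945 in rumen (SD, n = 2). GATA2, which precedes GATA1 in progenitors, stood at 9.83 ± 1.37 CPM in liver and 8.01 ± 2.24 in forebrain and did not pass between them (edgeR, adjusted p = 0.639).

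Of 10 tested genes of erythropoietin and KIT signalling (of 13 listed), 7 were higher and 1 lower in liver in each comparison. The shares of all tested genes were 29.4% higher and 25.9% lower than in forebrain, and 20.3% and 20.1% than in rumen. The list's median log2 fold change was 3.60 against forebrain and 2.89 against rumen, where all tested genes had 0.14 and 0.06. The lower gene was KIT, the stem cell factor receptor, and 0 were lower than rumen without Rumen 2. EPOR, the erythropoietin receptor, stood at 186 ± 35.4 CPM in liver, 2.07 ± 0.175 in forebrain and 1.62 ± 1.07 in rumen (SD, n = 2). TFR2, a transferrin receptor that associates with EPOR, stood at 488 ± 102 CPM in liver and 3.37 ± 0.987 in forebrain (SD, n = 2), and hepatocytes express it as well.

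Of 18 tested membrane and skeleton partners (of 27 listed), 16 were higher in liver than in forebrain, where 29.4% of all tested genes were higher. Their median log2 fold change was 2.84, against 0.14 for all tested genes. ADD1 and ADD3 did not pass, and ADD3 was lower without Liver 1. Against rumen the median was 2.11, where all tested genes had 0.06. Of the 18, 12 were higher and 1, BCAM, was lower than in rumen, where 20.3% of all tested genes were higher and 20.1% lower. The lower count was 3 without Liver 1, with ADD1 and ADD3 added, and 0 with either Rumen library left out. The counts of higher genes fell too, against forebrain with either Forebrain library left out and against rumen with either Rumen library left out. GYPC, a glycophorin found in many tissues, had counts in all 6 libraries, at 216 ± 41.1 CPM in liver, 31.8 ± 10.2 in forebrain and 66.1 ± 14.2 in rumen (SD, n = 2).

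Haemoglobin and haem genes moved the same way, and HBA, HBG and the haem synthesis genes kept more reads outside liver than the 8 genes. The other globin genes did not all do so. All 8 tested genes of the globin list, which includes the chaperone AHSP, and all 10 haem synthesis genes, were higher in liver than in both other tissues, the globin list with median log2 fold changes of 8.24 against forebrain and 7.995 against rumen and the haem genes with 5.05 and 4.90. With either Forebrain library left out, fewer genes of both lists passed as higher than in forebrain. With either Rumen library left out, fewer genes of the globin list passed as higher than in rumen. Of 13 tested genes of late erythroid maturation, 9 were higher in liver than in forebrain and 10 higher than in rumen, with medians of 3.36 and 3.07. In each comparison 1 was lower. All tested genes had medians of 0.14 and 0.06. Of them, 29.4% were higher and 25.9% lower in liver than in forebrain, and 20.3% and 20.1% than in rumen. HBG, the fetal beta-type globin, stood at 419 ± 11.01 CPM in forebrain and 421 ± 51.7 in rumen (SD, n = 2). Its reads can be shared with near-identical globin copies.

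Because HBG was measurable in every library, the 8 genes were also set against it within each library. Their sum per 1000 HBG counts was 64.7 in Liver 1 and 75.2 in Liver 2. In Forebrain 1 and 2 it was 13.0 and 7.60, and in Rumen 1 and 2 it was 2.17 and 8.32. SLC4A1 gave 23.9 and 14.1 counts per 1000 HBG counts in Liver 1 and 2, 0.395 in Forebrain 1, 0.167 in Rumen 1 and none in the other 2 libraries. ALAS2, the erythroid enzyme of the initial step of haem synthesis, kept 14.8 and 17.1 in forebrain and 13.9 and 15.2 in rumen, against 33.0 and 64.3 in liver. TAL1 behaved differently from the other members on this scale, at 4.73 and 3.48 in liver, 8.30 and 4.56 in forebrain, and 0 and 5.48 in rumen, so its tissues overlapped. The part of other cell types in the TAL1 reads was not tested. The summed level of 12 endothelial markers was 257 CPM in Forebrain 1 and 352 in Forebrain 2. In liver it was 681 CPM (Liver 1) and 540.1 (Liver 2), against 457 (Rumen 1) and 401 (Rumen 2), and all 12 had counts in every library.

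**Figure D2:**
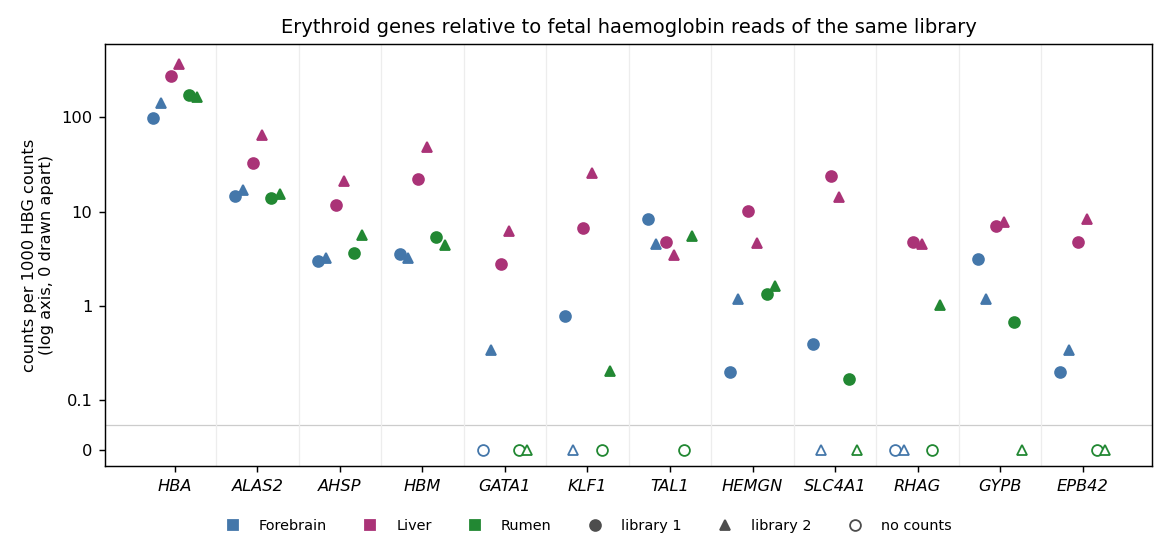
Counts of each gene per 1000 HBG counts of the same library, on a log axis with 0 drawn apart; colours are tissues, circles library 1 and triangles library 2, and open symbols libraries without counts. HBA and ALAS2 keep values above 10 in all libraries, 7 of the 8 erythroid genes are lower in each forebrain and rumen library than in either liver library, and TAL1 overlaps.

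Markers of other blood cells differed between the tissues as well. For comparison, 29.4% of all tested genes were higher in liver than in forebrain, and 20.3% were higher and 20.1% lower than in rumen. Their median log2 fold changes were 0.14 and 0.06. All 6 tested megakaryocyte and platelet genes were higher in liver than in forebrain and rumen (3 than in rumen with either Rumen library left out), with median log2 fold changes of 7.33 and 5.96, and their sum was 2664 and 1465 CPM in liver, 12.9 and 14.7 in forebrain, and 109 and 101 in rumen. The sum of 8 macrophage genes was 748 and 335 CPM in liver, 58.1 and 85.4 in forebrain, and 31.5 and 33.6 in rumen. The sum of 8 progenitor genes was 313 and 412 CPM in liver, 56.3 and 49.4 in forebrain, and 427 and 444 in rumen. The rumen sum was mostly MEIS1, at 345 and 371 CPM in Rumen 1 and 2. In each comparison 4 of the 8 progenitor genes were higher in liver, and 1, MEIS1, was lower than in rumen. The 5 mast cell genes summed to 6.55 and 1.28 CPM in liver, 15.9 and 19.5 in rumen, and 7.07 and 7.87 in forebrain, and MRGPRX2 had no counts in any library. This sum was mostly TPSB2, at 4.91 and 1.22 CPM in liver, 15.7 and 19.5 in rumen, and 5.12 and 5.48 in forebrain. Of the 5 genes, 2 were tested. The 7 proliferation genes summed to 1472 and 1180.3 CPM in liver, 134 and 139 in forebrain, and 396 and 441 in rumen. The part of megakaryocytes in the GATA1 and TAL1 levels was not tested.

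Between the liver libraries the 8 genes did not share 1 ratio. HEMGN was 6.24-fold higher in Liver 1 (95% counting interval 5.99 to 6.51), SLC4A1 4.92-fold (4.81 to 5.04) and TAL1 3.95-fold (3.76 to 4.15). RHAG was 3.06-fold higher (2.93 to 3.20), GYPB 2.67-fold (2.58 to 2.77), EPB42 1.66-fold (1.60 to 1.72) and GATA1 1.30-fold (1.24 to 1.36). KLF1 went the other way, with a Liver 1 over Liver 2 ratio of 0.743 (0.724 to 0.762). These are exact Clopper-Pearson intervals that cover counting error only, since PCR reads are not independent molecules, and with 1 library on each side there is no replicate check.

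**Figure D3:**
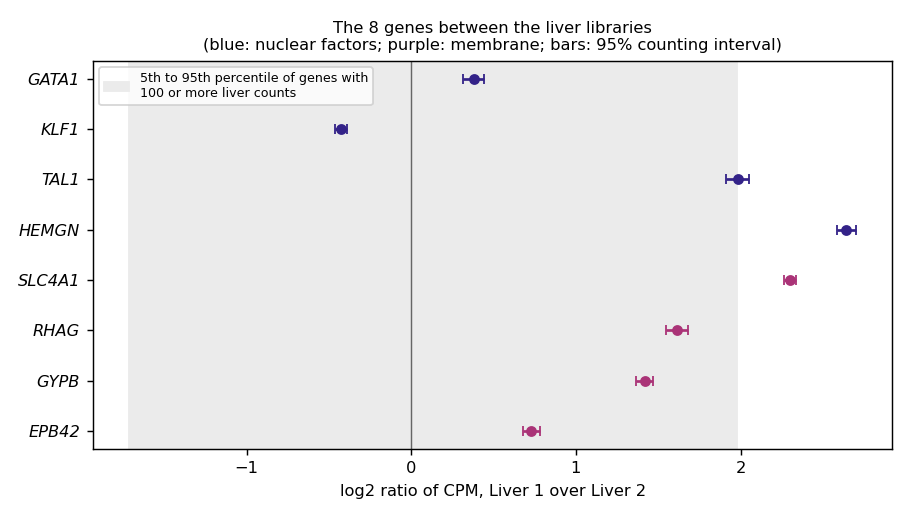
Log2 ratio of CPM, Liver 1 over Liver 2, for the 8 genes, with 95% counting intervals; blue points are nuclear factors, purple points membrane genes, and the grey band spans the 5th to 95th percentile of genes with at least 100 liver counts. HEMGN lies furthest to the right at 2.64 and KLF1 alone lies left of 0, at -0.43.

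At least 2-fold higher levels in Liver 1 were found for 5 of the 8 members, against 15.0% of 9062 genes with 100 or more liver counts, and 15.1% of genes were as much higher in Liver 2. The median log2 ratio was 1.52 over the 8, 1.18 over the 4 nuclear factors and 1.52 over the 4 membrane genes, against 0.0037 over all 9062. Of the 9062 genes, 2.34% had a larger ratio than HEMGN, 3.64% than SLC4A1 and 4.93% than TAL1. KLF1 lay on the other side of the middle, with 68.3% of genes above it. Set against KLF1 in the same library, SLC4A1 had 3.60 counts per KLF1 count in Liver 1 and 0.544 in Liver 2, a 6.63-fold shift. The same shift was 8.40-fold for HEMGN and 5.32-fold for TAL1, but 2.23-fold for EPB42 and 1.75-fold for GATA1. Within the membrane group, SLC4A1 and its binding partner EPB42 therefore differed in their ratios beyond counting error.

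Other erythroid genes split between the liver libraries in the same uneven way. Of 14 transcription partners 12 were higher in Liver 1, but GFI1B and NFE2 were lower there, with Liver 1 over Liver 2 ratios of 0.614 and 0.679. Of 18 membrane partners 13 were higher in Liver 1. Of 8 erythropoietin and KIT signalling genes 6 were higher in Liver 1, with a median log2 ratio of 0.81, and EPOR and TFR2 were the exceptions at ratios of 0.763 and 0.742. Of 11 late maturation genes 10 were higher in Liver 1, with a median of 0.38. All 7 genes of the globin list with enough counts, AHSP included, were higher in Liver 1, with a median log2 ratio of 1.12. Haem synthesis was the list that leaned to Liver 2, with 3 of 10 genes higher in Liver 1 and a median of -0.44. Its members ran from UROS at a ratio of 0.184 to CPOX at 9.67. EPB41, the protein 4.1 gene of the red cell skeleton, had a ratio of 9.25. The examples UROS, CPOX and EPB41 were chosen after their values were seen. Among markers of other cell types, 5 of 6 megakaryocyte and platelet genes were higher in Liver 1, with a median log2 ratio of 1.49. So were 7 of 8 macrophage genes, with a median of 0.80. Medians were lower for endothelium (8 of 12, median 0.46), progenitors (4 of 6, median 0.34) and proliferation genes (4 of 7, median 0.51). Over all 9062 genes with 100 or more liver counts the median was 0.0037. The part of these cell types in the ratios of the 8 genes was not tested. Hepatocyte genes were evenly placed, 7 of 13 being higher in Liver 1, with a median of 0.10 and a range from -1.62 to 1.47.

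**Figure D4:**
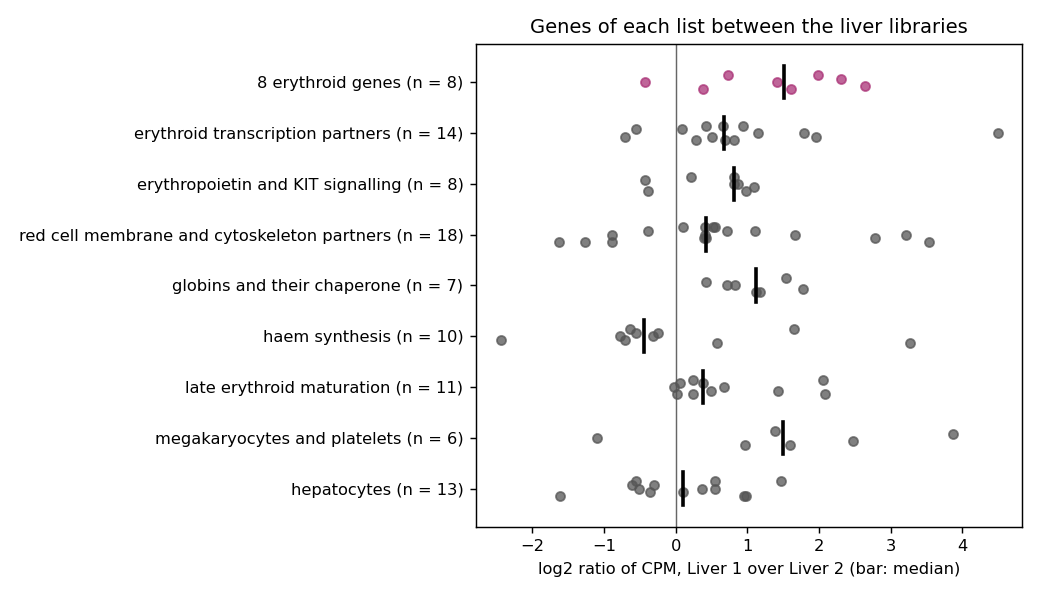
Log2 ratio of CPM, Liver 1 over Liver 2, for each gene with at least 100 liver counts, by list; black bars are medians. The 8 erythroid genes have a median of 1.52, haem synthesis genes of -0.44 and hepatocyte genes of 0.10, and the genes within each list are widely spread.

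The genes whose pattern over the 6 libraries came nearest to the 8 were found by the root mean square distance of centred log2 CPM. TRIM10, an erythroid ubiquitin ligase gene, was nearest to the mean profile of the 8, at a distance of 0.41. The next were APOC3, C29H11orf86, SERPINA11 and SERPINA7, at 0.49 to 0.56, followed by CPN1, LOC282685, HAL, HAVCR1 and FABP1, at up to 0.64. APOC3, SERPINA7 and FABP1 are hepatocyte genes, and a pattern of high in liver and near 0 elsewhere did not separate the cell types. Of all 14179 symbols, 76 (0.536%) had a mean liver level at or above that of GATA1, the lowest of the 8 at 267 CPM, and a mean of at most 5 CPM in forebrain and in rumen, and the 8 genes are among them by construction. With a larger prior count, 5 of these 10 remained. For single members, EPB42 lay nearest to TRIM10 (0.32) and then to GATA1 (0.42), GATA1 to LECT2 (0.36), GYPB to MPIG6B (0.56), RHAG to HAMP (0.69) and KLF1 to HPX (0.61). TAL1, HEMGN and SLC4A1 had no gene as near, at 0.80 for PTPN7, 0.86 for AHSP and 0.90 for A1BG.

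The high liver level did not extend evenly to neighbouring genes. Taking the 2 nearest protein-coding genes on each side of each member in RefSeq's ARS-UCD2.0 gene order, 18 of 32 neighbours were tested. Of these 9 were higher and 3 lower in liver than in forebrain, with a median log2 fold change of 1.60 against 0.14 for all tested genes. Against rumen 5 were higher and 4 lower, with a median of 0.73 against 0.06. The shares of all tested genes were 29.4% higher and 25.9% lower than in forebrain, and 20.3% and 20.1% than in rumen. Beside SLC4A1, the mitochondrial carrier gene SLC25A39 was higher in liver at 946 ± 227 CPM against 92.2 in forebrain, while the neuronal gene RUNDC3A was lower at 2.91 ± 0.937 against 117 CPM (SD, n = 2). Beside EPB42, CCNDBP1 stood at 151 ± 7.18 CPM in liver and 126 CPM in forebrain and did not pass (edgeR, adjusted p = 0.296). These neighbours were chosen after their values were seen. In that table TAL1 overlapped a tRNA gene and HEMGN a long non-coding RNA, and the other 6 overlapped no gene.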

How the data were processed

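Per the labels' protocols, libraries of poly(A) RNA came from a NEBNext Ultra kit. HISAT2 2.0.5, featureCounts 1.5.0-p3 and edgeR 3.18.1 are named in the submitters' processing notes. No source used here gives the build, the annotation or the strand setting, so coordinates are left out, and overlapping or antisense genes may share reads. The deposited values were the authors' raw counts per symbol, in 6 columns matched to samples by name. The test was that of edgeR 4.0.16 under R 4.3.3 (TMM scaling, filterByExpr with a minimum count of 10, 11478 genes kept, quasi-likelihood test, 1 mean per tissue, all 6 libraries, no block, 3 residual degrees of freedom), with p adjusted by Benjamini-Hochberg across the whole table and a threshold of 0.05. DESeq2 1.42.0 was an alternative. Alternatives also changed the scaling, the filter, the block and the libraries. The scripts were tested on simulated data. Ratios printed without an SE are of pooled CPM, and a tissue without counts was set to 3 counts over its libraries. Each SE was derived from edgeR's test. It is the size of the log2 fold change fitted without a prior count, divided by the square root of the F statistic. No fold is given where the lower tissue had 1 to 3 counts. All 8 genes are named, whatever their values; of each list, up to 6 genes of highest liver CPM and a few preset partners could be named. TCF12, BCL11A, KIT, ADD1, ADD3, EPB41, CPOX and the neighbours fall outside this rule and were named after their values were seen. The 8 genes and the lists were chosen with earlier results of these data known. Patterns were compared on log2 CPM with a prior count of 1. Sequences were not used here, and a few listed genes are not reported.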

Additional observations from a re-analysis of the deposited data

How the results depend on the processing

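Under every alternative run (scaling by DESeq2's size factors or by total counts, no filter on low counts, the replicate block, DESeq2, and leaving out each library), the 8 genes remained higher in liver than in both other tissues, with adjusted p of at most 0.0496 (TAL1 against forebrain without Forebrain 2) in 176 refits of single genes. A refit with 1 library in a tissue assumes that it varies like the others. In the main test all members but TAL1 passed the filter on low counts through liver alone. The refits therefore describe the calls and add no separate support. The count of members lower in rumen than in forebrain was 0, and 1 with the replicate block and 1 with DESeq2; leaving out 1 library gave 0 to 1, with 1 without Liver 1 and without Liver 2. The gene was GYPB. The labels tie replicate numbers to no fetus, and same-numbered libraries did not deviate together (correlations across 11478 genes of 0.070, -0.051 and -0.0047), so the block has no basis in the design; it changed no other call of the members. The median log2 ratio of Liver 1 over Liver 2 was 1.52, and 1.28 when scaled by the summed hepatocyte counts, with KLF1 alone below 0 under each scaling. Scaling by total counts moved the median log2 fold change of all genes from 0.14 to -0.34 against forebrain and from 0.06 to -0.23 against rumen, and the share of calls that were higher in liver from 53.2% to 39.3% and from 50.2% to 37.5%. Leaving out 1 library gave 1877 to 4127 genes higher in liver than in forebrain (3377 with all libraries), 1013 to 3479 against rumen (2325), 931 to 3482 higher in rumen than in forebrain (2235), and 947 to 3659 lower (2280). With at most 42 counts of any of the 8 genes in a forebrain or rumen library, depth limits what can be said of differences between those tissues.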
